A study of Homo sapiens with 6 samples.

Results

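The 3 libraries labelled shControl give the transcriptome of T98G cells that carry a control hairpin. They are 3 of the 6 libraries in the series, and no other library enters the values below. The deposited table lists 35750 genes, and 11759 of them are called expressed here because their 3 control values averaged 1 FPKM or more. FPKM are fragments per kilobase of gene model scaled to library size, a level per length by which genes are compared here. Genes with long exons of little use come out too low, so comparisons between genes are approximate. Protein-coding genes made up 10364 of the expressed genes, which is 59.9% of the 17298 listed, and this share is the background for the gene lists below.

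T98G is an established human glioblastoma line, here carrying a control short hairpin RNA. The remaining group of the series carries a hairpin against the amino acid transporter SLC1A5 and is not described. No library of unmodified T98G cells is in the series, so levels of the line and effects of hairpin delivery cannot be told apart. Per the labels, all cells grew in DMEM medium with fetal bovine serum and antibiotics. RNA was enriched for poly(A) tails and read in pairs on an Illumina instrument. No label says whether the 3 libraries came from separate cultures, so the spread between them may be technical.

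Glioblastoma is the most aggressive common tumour of glial character in the adult brain. Its cells are usually described by states that resemble astrocytes, progenitors of oligodendrocytes or of neurons, or mesenchymal cells. Common lesions affect receptor tyrosine kinases, the PI3K pathway and the RB pathway, often with loss of the CDKN2A region on chromosome 9. Lines kept in serum commonly lose glial and stem cell markers and keep matrix, adhesion and cytoskeletal genes.

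The libraries held 63420773, 62858288 and 59327548 counts. Each listed 11745 to 11775 genes at or above 1 FPKM. No count was found for 5483 genes in any of the 3 libraries, 1285 of them protein-coding. By counting error alone, a count of 0 allows a level of up to 3 counts per library (0.0473 to 0.0506 CPM). Other error is not covered: DMRTA1 had 29, 0 and 25 counts, so a 0 does not strictly bound a level. Of all listed genes, 4076 reached 10 FPKM, 299 reached 100 and 19 reached 1000, and the median of the expressed genes was 6.27.

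By FPKM the most abundant nuclear transcript by a wide margin was FTL (chromosome 19, 48965309 to 48966879), the light chain of the iron store ferritin. It stood at 7787, 7473 and 7831 FPKM in libraries 1, 2 and 3 (mean 7697 ± 195, SD, n = 3). The margin depends on gene length. In counts FTL had 485893, 459209 and 453431, close to the 459373, 457400 and 439359 of the elongation factor EEF1A1. The heavy chain FTH1, which oxidises iron for storage, stood at 992, 959 and 1000.2 FPKM. In all 3 libraries the light chain exceeded the heavy chain, and it made up 88.7% ± 0.0403 of their summed FPKM (SD, n = 3). Both genes have many processed pseudogenes, and how reads that fit more than 1 place were treated is not given in the sources used here.

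GAPDH, a glycolytic enzyme, followed at 2175, 2156 and 2206 FPKM. The actin-monomer binder TMSB10 stood at 1531, 1361 and 1455, and the elongation factor EEF1A1 at 1171, 1184 and 1207. These 3 genes kept their order in each library. PRDX1, which reduces peroxides, had 996 ± 33.5 FPKM (SD, n = 3), and S100A6, a calcium-binding protein of motile and mesenchymal cells, had 833 ± 30.1. Beta tubulin TUBB (687 ± 9.13), actins ACTB (669.8 ± 2.89) and ACTG1 (658 ± 8.81) and alpha tubulin TUBA1B (653 ± 9.67) completed the nuclear protein-coding genes among the 30 highest. ACTB stood at 671, 666 and 672 and ACTG1 at 648, 659.7 and 666, so ACTB was the higher within each library by a small margin. The 10 highest nuclear genes held 8.89% ± 0.136 of nuclear FPKM, the top 100 held 23.1% ± 0.245 and the top 1000 held 54.7% ± 0.321 (SD, n = 3).

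**Figure D1:**
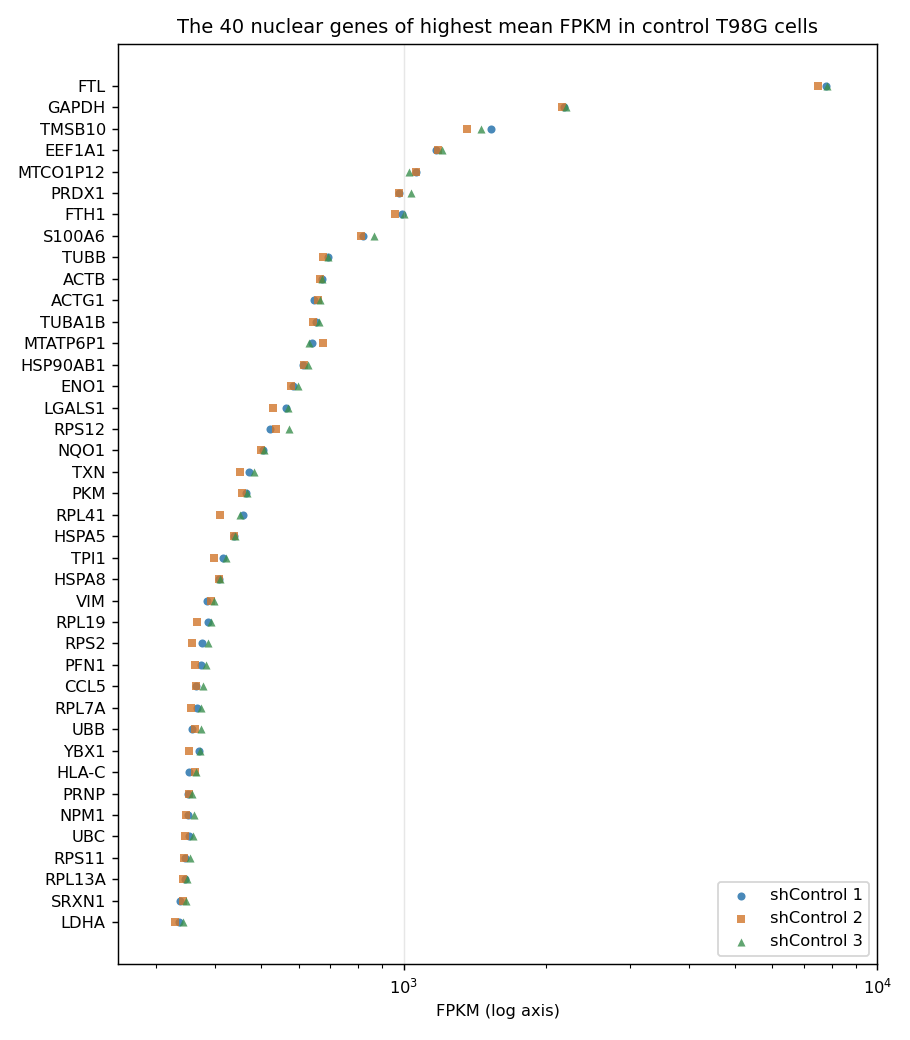
FPKM (horizontal log axis) of the 40 nuclear genes with the highest mean, with 1 symbol per shControl library. FTL lies far to the right, near 7697, GAPDH follows near 2179, and the 3 libraries of each gene lie close together.

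Further nuclear names among the 30 highest, MTCO1P12 (1049 ± 20.7 FPKM, SD, n = 3) and MTATP6P1 (649 ± 23.7), are pseudogenes copied from mitochondrial DNA. Their reads cannot be told apart from those of the mitochondrial genes, so the values are uncertain. The 37 genes encoded in mitochondria were all expressed and held 19.2% ± 0.215 of summed FPKM but 4.19% ± 0.0200 of counts (SD, n = 3). MT-ATP8 and MT-ATP6, subunits of ATP synthase that overlap on the mitochondrial genome, had means of 5515 and 4396 FPKM. MT-CO1, a core subunit of cytochrome oxidase, had 4347, 4479 and 4317, and MT-CO2 had 3884, 3891 and 3901. The mitochondrial ribosomal RNAs MT-RNR2 (3577 ± 42.8) and MT-RNR1 (1522 ± 23.6) were also listed.

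Grouped by function, ferritins, antioxidants and metallothioneins held 4.87% ± 0.0961 of summed FPKM over 22 genes, nearly the same as the 4.76% ± 0.0904 of 86 cytosolic ribosomal protein genes (SD, n = 3). The ranges over libraries of these 2 classes overlapped. Most of the share of the first class was FTL alone, with a mean of 7697 FPKM of a class sum of 12012. All 22 genes of the antioxidant class were expressed, with a median of 76.7 FPKM against 2.38 over all listed protein-coding genes. NQO1, a quinone reductase controlled by NRF2, stood at 504, 499 and 508 FPKM. Thioredoxin TXN stood at 472, 451 and 484. SRXN1, which restores oxidised peroxiredoxins, stood at 337, 342 and 348, and NFE2L2, which encodes NRF2, had 57.3 ± 0.261. TXN, SRXN1 and NFE2L2 were chosen after their values were seen. By counts, which do not divide by length, this class held 1.88% ± 0.0363 and the ribosomal proteins 3.65% ± 0.0824. The 2 shares were thus close by FPKM and not by counts. Gene length weighs within the ribosomal class too, as 2 genes chosen after their values were seen show. RPS29 had 1483, 1420 and 1332 counts but a mean of 2.06 FPKM, and RPL39L had 334, 363 and 246 counts but 4.34.

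The glycolysis class was expressed in 16 of 17 genes, with a median of 155 FPKM and 2.04% ± 0.0197 of summed FPKM. Beside GAPDH its highest members were ENO1 (587 ± 10.0), PKM (463 ± 5.48) and TPI1 (412 ± 12.3), the enolase, pyruvate kinase and triose phosphate isomerase of the pathway. Cytoskeletal genes held 3.07% ± 0.0293, with 38 of 42 expressed, and MYL9, a smooth muscle light chain, had no count. All 29 chaperones were expressed and held 2.07% ± 0.0109. They were led by HSP90AB1 (619 ± 8.75), the endoplasmic reticulum chaperone HSPA5 (439 ± 1.22), HSPA8 (408 ± 0.983) and the cyclophilin PPIA (334 ± 13.1). All 38 translation factors were expressed, with EEF1G (275 ± 31), EEF2 (265 ± 8.15) and PABPC1 (219 ± 1.95) next after EEF1A1. EEF1G and EEF2 differed by less than the SD of EEF1G, so their order is not settled.

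Matrix genes were expressed in 34 of 37, held 1.03% ± 0.0111 of FPKM and 2.34% ± 0.0234 of counts, and had a median of 42.5 FPKM. COL6A3, a chain of the microfibril collagen VI, stood at 313, 319.8 and 306 FPKM. TGFBI, a secreted integrin ligand, had 284 ± 2.18, the collagen-binding glycoprotein SPARC 189 ± 0.909, and the disulfide isomerase P4HB 187 ± 1.56. The fibrillar collagens were uneven: COL1A2 had 56.5 ± 1.35, while its partner chain COL1A1 had 0.366 ± 0.0480 and COL3A1 0.0445 ± 0.00442, both chosen after their values were seen. Among S100 proteins, annexins and galectins, 17 of 18 were expressed, led by S100A6, the galectin LGALS1 (555 ± 21.5), S100A11 (281 ± 10.2) and S100A4 (221 ± 8.11).

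Markers of glial, neural and non-neural cell types were few. Over 11 lists, 26 list entries were expressed, and no list of a cell type reached the protein-coding background of 59.9%. With a minimum of 1 TPM, where 1 FPKM is worth 4.05 TPM, 43 entries passed. That cut is lower, and 16015 of all listed genes passed it against 11759. The share of 59.9% is not its background, and no protein-coding share was computed for it. The label of a glioblastoma line was therefore checked against astrocyte markers first. Of 13 listed astrocyte genes, 6 were expressed, led by ID3 (47.7 ± 0.995 FPKM, SD, n = 3), CLU (30.6 ± 0.222), GJA1 (17.1 ± 0.252) and SOX9 (10.1 ± 0.104). These encode an inhibitor of basic helix-loop-helix factors, clusterin, a gap junction connexin and a glial transcription factor. The defining astrocyte filament gene GFAP (chromosome 17, 44903159 to 44916937) had 28, 16 and 8 counts, or 0.0204 ± 0.0117 FPKM. S100B had 3, 0 and 0 counts and ALDH1L1 3, 0 and 0, so 3 defining markers, chosen after their values were seen, lay at or near 0. In bulk RNA, fewer cells of a type and less RNA per cell cannot be told apart.

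Of 14 neural stem and radial glia genes, 5 were expressed, led by the intermediate filament VIM at 385, 392 and 397 FPKM. ID1 (61.7 ± 3.31), the tetraspanin CD9 (18.3 ± 0.854) and HES1 (2.20 ± 0.205) came next, and these 4 genes are not particular to neural cells. FABP7 and PROM1, a fatty acid binder of radial glia and the CD133 antigen, had no count in any library. SOX2, the stem cell transcription factor, had 8, 7 and 10 counts, and the filament gene NES had 32, 45 and 36, both chosen after their values were seen. Neither reached 0.1 FPKM in its mean, 0.0463 for SOX2 and 0.0959 for NES.

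Of 13 oligodendrocyte lineage genes, 3 passed 1 FPKM. CNP, a phosphodiesterase of myelin, had 15.6 ± 0.704, while NKX2-2 (1.16 ± 0.416) and MYRF (1.04 ± 0.0648) lay at the threshold. OLIG2, the next in level, had 0.741 ± 0.00844, and OLIG1 and MOG had no count. Of 15 neuronal genes, 4 were expressed: TUBB3 (20.6 ± 0.737), MAP2 (8.93 ± 0.0979), SNAP25 (3.60 ± 0.136) and DLX2 (1.26 ± 0.0355). TUBB3 and MAP2 encode cytoskeletal proteins and SNAP25 a vesicle fusion protein, and RBFOX3 and ELAVL3, nuclear and RNA-binding proteins of mature neurons, had no count.

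Fibroblast and pericyte genes were expressed in 4 of 14, all 4 above 10 FPKM, and 9 passed 1 TPM. S100A4 was at 221, 213 and 229 FPKM, COL1A2 at 54.9, 57.1 and 57.4, the surface protein THY1 at 50.6, 50.1 and 50.5, and the receptor PDGFRB at 21.2, 21.6 and 21.1. DCN, the matrix proteoglycan decorin, had no count. In the remaining lists 1 gene or none passed. CD68 (18.1 ± 1.26), a lysosomal protein, was the single expressed gene of 11 microglia genes, and AIF1, CX3CR1 and TYROBP had no count. ENG (53.3 ± 0.992), a receptor for TGF-beta ligands, was the single one of 9 endothelial genes, and CDH5 had no count. The keratin KRT18 (29.4 ± 1.66) was alone among 12 epithelial genes, where KRT5, KRT14, ESRP1, OVOL1 and GRHL2 had none. Without library 1, KRT8 (0.822, 1.06 and 0.978 FPKM) also passed and the list had 2. MITF (2.30 ± 0.251) was alone among 5 melanocyte genes. None of 9 lymphocyte and none of 9 red cell and neutrophil genes was expressed. The summed levels per library were 0.136 to 0.205 FPKM for the lymphocyte list, where CD3E, CD2, MS4A1 and IGHM were among the genes with no count, and 0.181 to 0.277 for the red cell and neutrophil list, where MPO and FCGR3B had none.

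The lists for glioblastoma states separated widely. Of 25 mesenchymal genes, 24 were expressed (96.0%), 20 at 10 FPKM or more and 9 at 100 or more, with a median of 24.0. Over all listed protein-coding genes 22.6% reached 10 FPKM and 1.55% reached 100. S100A6, LGALS1, VIM and TGFBI led the list, and the receptor for hyaluronan CD44 had 209.5, 209 and 210.0 FPKM. CHI3L1, a secreted glycoprotein often used as a marker of this state, was the exception at 0.168 ± 0.0698 with 28, 37 and 57 counts. Both CD44 and CHI3L1 were chosen after their values were seen. The list itself was chosen with earlier results of these data known. All libraries of the series are T98G, so whether these levels are particular to glioblastoma cells cannot be told.

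Of 16 genes for the hypoxic form of the mesenchymal state, 14 were expressed, with a median of 12.9 FPKM. The autophagy receptor SQSTM1 stood at 320.4, 320.1 and 331 FPKM. NAMPT (55.9 ± 0.600), which makes a precursor of NAD, the glucose transporter SLC2A1 (55.7 ± 1.38) and the peptide hormone ADM (35.3 ± 0.986) followed. The hypoxia marker CA9, chosen after its values were seen, had 0.805 ± 0.170.

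Of 13 genes of the astrocyte-like state 3 were expressed, SPARC, the protease inhibitor CST3 (20.9 ± 0.709) and the glutamate transporter SLC1A3 (1.34 ± 0.116). Of 16 genes of the state like oligodendrocyte progenitors 3 were expressed, the serine synthesis enzyme PSAT1 (102 ± 1.37), THY1 and SIRT2 (4.34 ± 0.134), and SCRG1, OLIG1, PHYHIPL and NKAIN4 had no count. The list for neural progenitors had 9 of 15 expressed, near the background of 59.9%. Its highest members, the microtubule regulator STMN1 (36.8 ± 1.43), TUBB3, MARCKSL1 (18.5 ± 0.983) and the surface protein CD24 (15.9 ± 0.317), are also found in dividing cells outside the nervous system. These lists share genes with the cell type lists: GFAP, S100B, FABP7, SLC1A3, OLIG1, THY1, VIM and TUBB3 each stand in more than 1.

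**Figure D2:**
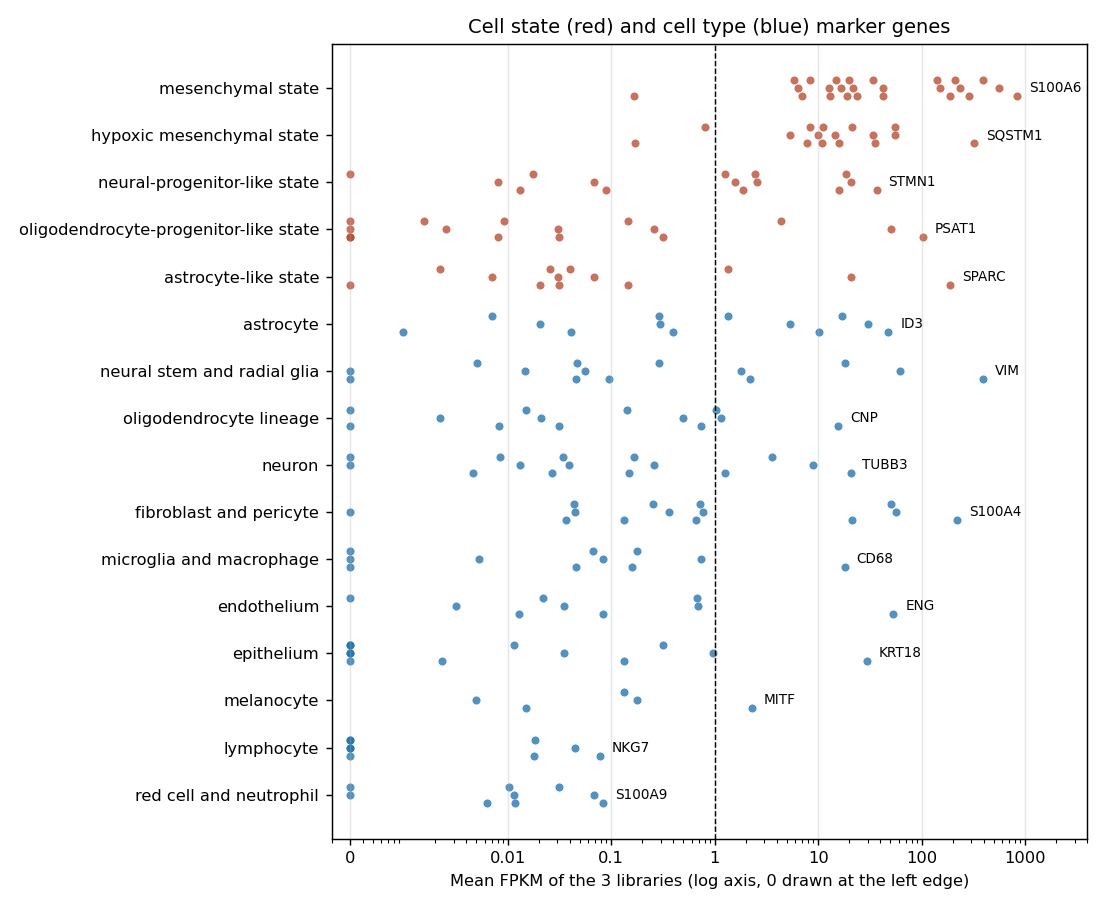
Mean FPKM of the 3 libraries (horizontal log axis, genes at 0 drawn at the left edge) for each gene of 5 cell state lists (red) and 11 cell type lists (blue), with the highest gene named and a dashed line at 1 FPKM. Mesenchymal genes lie to the right of the line except CHI3L1 at 0.168, while most cell type markers lie to its left.

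Receptor tyrosine kinases, the most frequent drivers in glioblastoma, were expressed in 16 of 33. AXL, a receptor for GAS6, was highest at 77.0, 76.7 and 78.3 FPKM. EGFR (chromosome 7, 55019017 to 55211628) stood at 40, 42.5 and 41.0, the ephrin receptor EPHA2 at 38.7, 42.0 and 41.0, and the receptor for hepatocyte growth factor MET at 33.0, 35.7 and 32.6. EGFR and EPHA2 overlapped over the libraries, AXL lay above both and MET below both. Of the 2 PDGF receptors PDGFRB had 21.3 ± 0.265 and PDGFRA 0.499 ± 0.0718, and FGFR2 had no count.

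Downstream, all 15 RAS and MAPK genes were expressed, led by NRAS (36.5 ± 0.866), MAP2K1 (27.0 ± 0.704) and the phosphatase DUSP4 (26.6 ± 0.175). NF1, the RAS inhibitor, had 4.07 ± 0.203. Of 17 PI3K genes 16 were expressed, led by RHEB (32.6 ± 0.650), AKT1 (12.3 ± 0.633), MTOR (11.2 ± 0.337) and RPTOR (10.6 ± 0.273). The level of NF1, chosen after its values were seen, says nothing of mutations, which counts per gene do not show.

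GADD45A, a stress-induced growth arrest gene, had 44.8 ± 3.34 FPKM, the death effector BAX 14.6 ± 0.729 and the cell cycle inhibitor CDKN1A 10.0 ± 0.545. Of 19 genes of cell cycle entry 16 were expressed. Cyclin D1 (CCND1) had 83.1 ± 2.24, its kinase CDK4 47.1 ± 1.78, the transcription factor E2F1 34.2 ± 0.523 and CDK6 25.7 ± 0.945. The 3 genes that were not expressed were the inhibitors CDKN2A (8, 13 and 6 counts) and CDKN2C (0, 4 and 0) and the cyclin CCND2 (4, 0 and 0).

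CDKN2A encodes the CDK4 inhibitor p16 and the MDM2 inhibitor p14ARF. It lies at chromosome 9, 21967753 to 21994873, between MTAP (21802636 to 21937651) and CDKN2B (22002903 to 22009305). MTAP, an enzyme of methionine salvage, stood at 4.14, 4.25 and 4.78 FPKM, CDKN2A at 0.0233, 0.0403 and 0.0205, and CDKN2B, which encodes the inhibitor p15, at 4.37, 4.66 and 4.75. Both neighbours were thus expressed in all 3 libraries and CDKN2A in none. CDKN2B overlaps the antisense RNA CDKN2B-AS1 (0.378 ± 0.0844) on the opposite strand, and whether reads were counted by strand is not given in the sources used here. On the telomeric side, in chromosomal order, MLLT3 had 0.781 ± 0.0477, FOCAD 3.56 ± 0.145, HACD4 0.0470 ± 0.0190 and IFNB1 7.20 ± 0.760. KLHL9 (8.86 ± 0.0380), IFNA1 (0.101 ± 0.0589) and IFNE (0.417 ± 0.156) lay between these and MTAP. Toward the centromere, DMRTA1 (0.0460 ± 0.0400) and ELAVL2 (0.148 ± 0.0207) were under 1, and TUSC1 (5.81 ± 0.549), CAAP1 (4.97 ± 0.123) and PLAA (13.4 ± 0.243) above it. Genes above and below 1 FPKM were interspersed along the region, and 8 of 16 listed genes were expressed.

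Of 15 listed genes for telomeres, chromatin and DNA repair, 14 were expressed. H3-3B, a replacement histone H3, had 86.2 ± 1.75, the base excision enzyme APEX1 46.6 ± 0.514, IDH2 35.7 ± 2.19 and IDH1 33.4 ± 0.896. MGMT, which removes alkyl groups from guanine and bears on the response to temozolomide, had 1.44 ± 0.159, just above the threshold. TERT, the catalytic subunit of telomerase, had 96, 87 and 120 counts or 0.243 ± 0.0511 FPKM and was not expressed by the rule used here. MGMT and TERT were chosen after their values were seen.

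Interferon-stimulated genes stood out when the highest genes were read, and the lists for them were made after that, so their counts are a description. All 3 libraries carry a hairpin RNA, and whether it bears on these genes was not tested and cannot be told here. Type I interferons signal through IFNAR1 and IFNAR2 to a complex that holds STAT2 and IRF9, which binds a repeated GAAA element near its target genes. Cytosolic sensors of RNA, RIG-I and MDA5, and of DNA, cGAS, can start interferon production. The promoters of 4 of the genes described next are printed to show a repeat of this type, and they were chosen because they hold it. They are the 250 bases before the RefSeq start (build GRCh38.p14), written 5′ to 3′ on the strand of the gene, with each match in capitals. The motif searched is GAAA, any 2 bases, GAAA, and on the other strand TTTC, any 2 bases, TTTC.

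IFIT1, chr10:89392373-89392622, plus strand: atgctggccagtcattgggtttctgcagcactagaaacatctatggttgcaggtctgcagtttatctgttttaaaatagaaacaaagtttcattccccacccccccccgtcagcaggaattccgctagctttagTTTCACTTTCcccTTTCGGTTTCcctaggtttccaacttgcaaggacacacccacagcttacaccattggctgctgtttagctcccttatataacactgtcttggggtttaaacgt
IFIT3, chr10:89327747-89327996, plus strand: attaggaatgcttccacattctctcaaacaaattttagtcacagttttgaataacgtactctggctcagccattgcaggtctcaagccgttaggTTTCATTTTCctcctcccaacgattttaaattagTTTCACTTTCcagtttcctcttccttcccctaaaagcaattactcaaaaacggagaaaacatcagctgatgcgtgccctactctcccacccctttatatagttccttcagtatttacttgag
ISG15, chr1:1013247-1013496, plus strand: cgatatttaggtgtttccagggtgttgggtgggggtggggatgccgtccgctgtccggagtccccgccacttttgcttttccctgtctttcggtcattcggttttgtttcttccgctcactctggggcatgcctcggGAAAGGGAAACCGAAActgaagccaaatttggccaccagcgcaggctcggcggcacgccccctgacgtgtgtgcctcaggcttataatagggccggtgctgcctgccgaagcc
CXCL10, chr4:76023498-76023747, minus strand: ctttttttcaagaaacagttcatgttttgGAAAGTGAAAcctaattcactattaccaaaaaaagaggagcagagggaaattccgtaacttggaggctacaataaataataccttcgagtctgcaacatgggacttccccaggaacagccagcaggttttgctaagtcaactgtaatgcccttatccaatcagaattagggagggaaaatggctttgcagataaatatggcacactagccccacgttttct

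The promoters of IFIT1 and IFIT3 each hold 2 separate matches, that of ISG15 holds 2 that overlap, and that of CXCL10 holds 1. Over all 35116 RefSeq promoters of this length, 3.02% hold the motif on either strand. Of the 32 antiviral genes 26 had an entry, and 17 of these hold it, while RSAD2 and MX1 are among those without it. CXCL10 belongs to the chemokines, of which 2 of 13 with an entry hold the motif, CXCL10 and CXCL9 (0.0951 FPKM), and CXCL8 and CXCL11 do not. Of the interferon ligands 4 of 7 hold it, and IFNB1 does not. A match describes letters and is not evidence of binding. Only 1 window before 1 start was searched per listed gene, so a repeat elsewhere or near another start would be missed.

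Of 32 interferon-stimulated antiviral genes, 31 were expressed (96.9%), 22 at 10 FPKM or more and 4 at 100 or more, with a median of 14.9. IFIT3, which helps IFIT1 bind viral RNA, was highest at 157, 157 and 159.7 FPKM. The membrane protein IFITM3 followed at 151, 140.3 and 147 and tetherin (BST2) at 142, 139.8 and 138, which overlapped at a single step between them. IFIT2 had 122, 124 and 123, and the ubiquitin-like ISG15 had 92.5, 105 and 99.5. OASL, IFI44 and RSAD2, the last known as viperin, lay at 87.7 ± 1.14, 86.3 ± 2.13 and 58.5 ± 1.10. Levels within the list were uneven: MX1, a GTPase that traps viral particles, had 2.77 ± 0.219, MX2 2.62 ± 0.0978, and IFI27 was the only member under 1, at 0.575 ± 0.0923.

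Of 7 listed ligands, 4 passed 1 FPKM (57.1%), near the protein-coding background of 59.9%. IFNB1 (chromosome 9, 21077104 to 21077942) had 429, 384 and 446 counts, or 7.12, 6.47 and 7.99 FPKM. IFNL1, a type III interferon, had 6.76, 7.53 and 9.06. IFNL3 and IFNL2, which are close copies of each other and therefore uncertain, had 1.66 ± 0.138 and 1.34 ± 0.0985. Among 12 receptor and signalling genes 11 were expressed, with IFNAR1 at 13 ± 0.174, IFNAR2 at 10.5 ± 0.238, STAT2 at 12 ± 0.115 and IRF9 at 1.06 ± 0.234. The exception was IFNLR1, the specific chain of the type III receptor, with 20, 36 and 48 counts (0.0999 ± 0.0445 FPKM). IRF9 lay at the threshold, and this list had 10 expressed without library 1 and 10 at a minimum of 2 FPKM. Of 13 sensors and adaptors 12 were expressed. RIGI, the gene of RIG-I, had 49.0 ± 0.827, IFIH1, the gene of MDA5, 23.2 ± 0.0868, their adaptor MAVS 24.2 ± 0.704 and STING1 14 ± 0.235. CGAS, which makes the ligand of STING, had 8, 0 and 0 counts.

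Chemokines were expressed in 11 of 18 (61.1%), near the protein-coding background of 59.9%, and 7 reached 10 FPKM or more. CCL5 (chromosome 17, 35871491 to 35880793), which attracts T cells and monocytes, stood at 364, 364 and 377 FPKM, rank 50 among all genes. CXCL10 had 163, 168 and 165, CXCL8 77.1, 75.4 and 80.8, and CXCL11 56.3, 59.3 and 59.5. CXCL9, which shares its receptor with CXCL10 and CXCL11, had 25, 12 and 20 counts (0.0951 ± 0.0334 FPKM), and CXCL1 and CCL7 had no count. Among 44 cytokines and growth factors 27 were expressed (61.4%), also near that background. MIF (219.6 ± 2.30) and IL6 (84.3 ± 1.17) led beside CCL5 and CXCL8, and CXCL1, FGF7 and AREG had no count.

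Antigen presentation genes, many of which are also induced by interferon, were expressed in 18 of 23. The class I genes HLA-C (360.1 ± 6.40) and HLA-B (277 ± 3.16) and their light chain B2M (305 ± 2.47) led the class. The HLA genes are similar and variable in sequence, so how reads split between them is uncertain. HLA-DQA1, of class II, had no count.

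**Figure D3:**
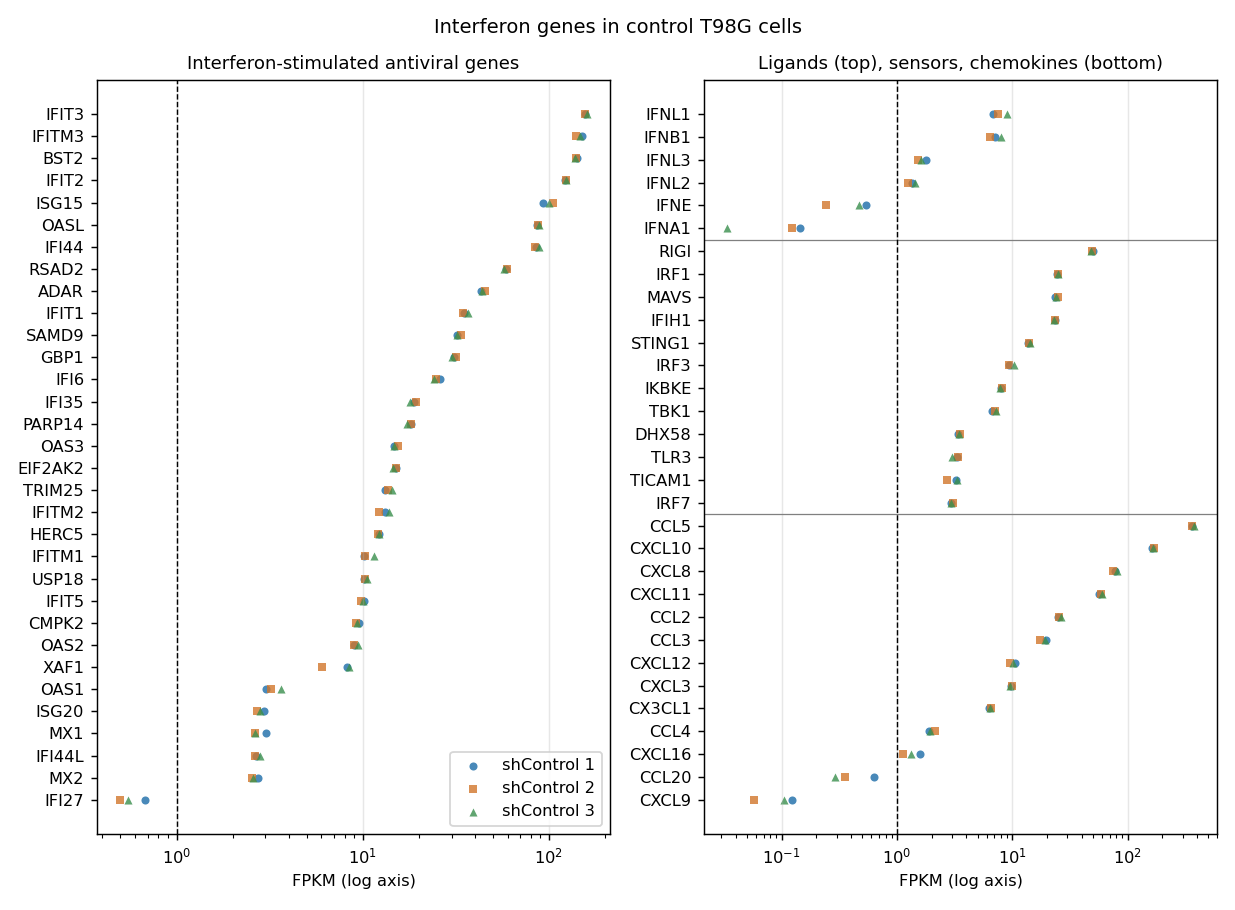
FPKM (horizontal log axes) of antiviral genes (left) and of interferon ligands, sensors and chemokines (right), with 1 symbol per shControl library and a dashed line at 1 FPKM; on the right, genes with a library at 0 are not drawn. The antiviral genes run from IFI27 at 0.575 to IFIT3 at 158, and the 3 libraries of a gene lie close together above about 10 FPKM.

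The table gives 1 value per gene, so transcript isoforms of a gene were not separated, and dominance was read between paralogs. Of 97 families, 96 had a summed level of at least 1 FPKM. In 27 of them the leading member held at least 90% of the family's FPKM, in 50 it held from 50% to under 90%, and in 19 less than 50%. The SD of a leading share over the 3 libraries was at most 2.27 percentage points in these 96 families.

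In glycolysis the families of single dominant members were aldolases (ALDOA, 99.9% ± 0.0352, SD, n = 3), phosphoglycerate mutases (PGAM1, 99.4% ± 0.0119) and enolases (ENO1, 98.2% ± 0.0811, with ENO2 at 1.67% ± 0.0851). PKM was the only pyruvate kinase with a count. Its FPKM rests on a merged exon length of 8571 bases, against 2717 for its longest basic transcript. Hexokinases were shared between HK1 (77.6% ± 0.649) and HK2 (20.1% ± 0.665), and phosphofructokinases between PFKP (59.1% ± 0.880), PFKL (23.3% ± 0.745) and PFKM (17.6% ± 0.690). LDHA, the lactate dehydrogenase form of glycolytic tissues, held 61.0% ± 0.192 and LDHB 38.9% ± 0.202. Among glucose transporters SLC2A1 held 65.5% ± 0.970 and SLC2A10 12.5% ± 0.221.

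In the cytoskeleton, VIM held 98.8% ± 0.0502 of intermediate filaments outside keratins, with synemin (SYNM) at 1.11% ± 0.0636. MYH9 held 95.6% ± 0.166 of non-muscle myosin heavy chains, and MYH14 had no count. TUBB (72.4% ± 0.175) and TUBB4B (22.9% ± 0.106) made up most of beta tubulin, and TUBA1B (71.4% ± 0.591) and TUBA1C (18.7% ± 0.398) most of alpha tubulin. The actins were split evenly, ACTB at 50.4% ± 0.361 and ACTG1 at 49.5% ± 0.356, though their coding sequences are nearly the same. At the cell surface CAV1 held 97.0% ± 0.0257 of caveolins, GPC1 98.3% ± 0.10 of glypicans, SDC4 83.6% ± 0.411 of syndecans and ITGB1 82.4% ± 0.618 of integrin beta subunits. Integrin alpha subunits had no dominant member: ITGA2, a collagen receptor chain, held 24.7% ± 0.460, ITGA3 20.7% ± 0.176, ITGA5 19.2% ± 0.694 and ITGAV 14.7% ± 0.219.

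Among regulators, MYC held 99.8% ± 0.173 of its family at 11.1 ± 0.663 FPKM. FOSL1 held 93.5% ± 0.269 of FOS factors at 192 ± 2.20 FPKM, with FOSL2 at 6.26% ± 0.242. RBFOX2 held nearly all and ELAVL1 98.8% ± 0.245 of families whose other members are known from neurons. DNMT1, the maintenance DNA methyltransferase, held 90.2% ± 0.845 and EZH2, the Polycomb methyltransferase, 89.9% ± 0.364, so these lay just inside and just outside the 90% line. NOTCH2 held 87.9% ± 0.652 and NOTCH1 10.0% ± 0.630 of the NOTCH receptors. CCND1 held 78.8% ± 0.688 and CCND3 21.2% ± 0.688 of D cyclins. HIF1A held 72.0% ± 0.627 and EPAS1 28.0% ± 0.627 of the HIF alpha subunits listed, and YAP1 74.3% ± 0.595 of YAP and TAZ.

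The leader depends on how length enters. By counts another gene led in 15 of the 96 families, and with the length of the longest transcript in 11. SLC16A3, for example, led the monocarboxylate transporters by both, where SLC16A1 led by FPKM (56.6% ± 0.699).

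**Figure D4:**
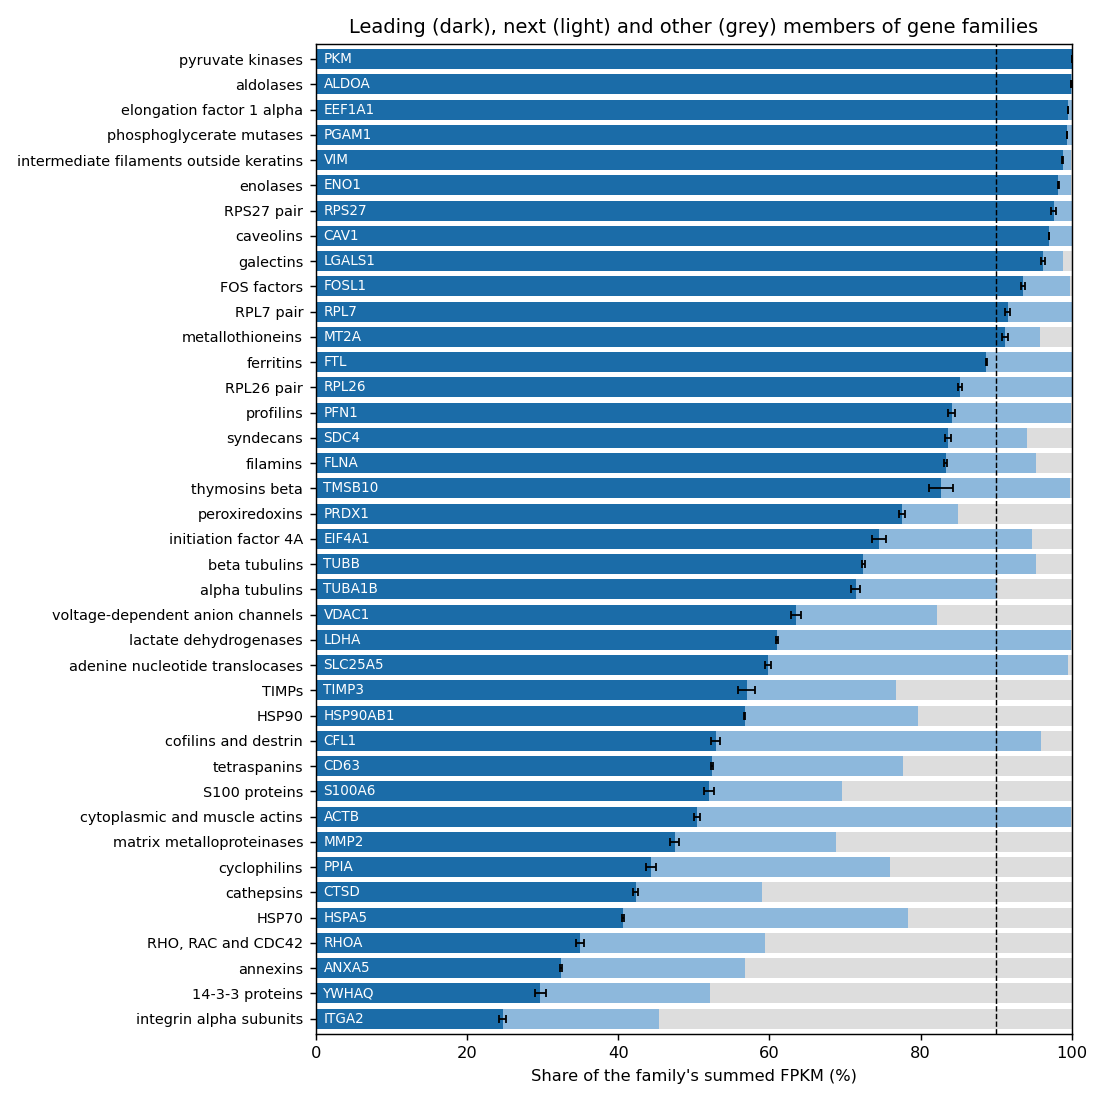
Shares of family FPKM (horizontal axis from 0 to 100%) for the 39 families with a summed level of at least 200 FPKM, as bars for the leading member (dark, named), the next (light) and all others (grey), with whiskers for the SD over the 3 libraries and a dashed line at 90%. PKM, ALDOA, EEF1A1 and PGAM1 fill nearly the whole bar, while ITGA2 holds 24.7% of the integrin alpha subunits.

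Classes named from gene ontology annotations in the table differed in how much of them was expressed. Serine/threonine kinases were expressed in 286 of 399 (71.7%) and transcription factors in 394 of 748 (52.7%). The shares were lower for cytokines and chemokines (69 of 186, 37.1%), structural matrix proteins (45 of 126, 35.7%), ion channels (53 of 234, 22.6%) and G protein-coupled receptors (61 of 376, 16.2%). Against the 59.9% background, kinases lay above and the other classes below. The matrix class nevertheless had the highest median among its expressed genes, 13.6 FPKM, and the receptors the lowest, 3.63.

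The 3 libraries resembled one another closely. Across expressed genes, which are not independent, Pearson correlations of log2(FPKM + 1) were 0.9935 to 0.9936 for the 3 pairs. The median coefficient of variation (CV, the SD as a share of the mean) was 4.34%, with quartiles of 2.50% and 7.70%. It was 9.77% for genes of 1 to 2 FPKM, 5.86% for 2 to 5, 4.05% for 5 to 10, 2.88% for 10 to 50 and 2.15% above 50. The variance between libraries was 4.38 times what counting alone gives at the median gene, where counting alone would give a median of 0.693.

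A few genes varied far more. Of 4038 nuclear genes with at least 10 FPKM, 29 had a CV of at least 20%. Of these 29, 23 (79.3%) overlapped a listed gene on the same strand or were pseudogenes, against 28.5% of all 4038. The readthrough gene NME1-NME2, which joins 2 nucleoside diphosphate kinase genes, had 2599, 0 and 1446 counts. Summed with NME1 and NME2, the locus had 29903, 28382 and 27075 counts and a CV of 2.27% after scaling to library size. MATR3, an RNA-binding nuclear matrix protein, is listed under 2 IDs with CVs of 29.8% and 53.5%, and 1.36% for the sum. The sums for RPS10 with NUDT3 (2.45%) and for SENP3 with EIF4A1 (1.24%) were also low, although SENP3-EIF4A1 alone had 53% and RPS10-NUDT3 41.6%. NME1-NME2 and SENP3-EIF4A1 held a small part of their locus totals, so a low CV of those sums follows largely from the other genes. These 4 loci were chosen after their values were seen, and the other overlapping genes of high CV were not summed. The remaining named genes of highest CV were MXRA7P1 (47.1%), PDXP (38.4%), MRPL53 (31.9%) and SPCS2P4 (29.2%).

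RN7SL1 and RN7SL2, the 7SL RNAs of the signal recognition particle, carry no poly(A) tail and summed to 14, 15.9 and 40.4 FPKM. A set of 4 noncoding genes with clone names on the short arm of chromosome 21, where ribosomal RNA genes lie, summed to 433, 566 and 1064. Both sets were highest in library 3, by 2.89 and 2.46 times over the lowest library, whereas the mitochondrial ribosomal RNAs differed by 1.03 times. Library 3 lay farthest from the mean for 4020 of the expressed genes, library 2 for 4010 and library 1 for 3729. Whether these RNAs bear on other values of library 3 was not tested.

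**Figure D5:**
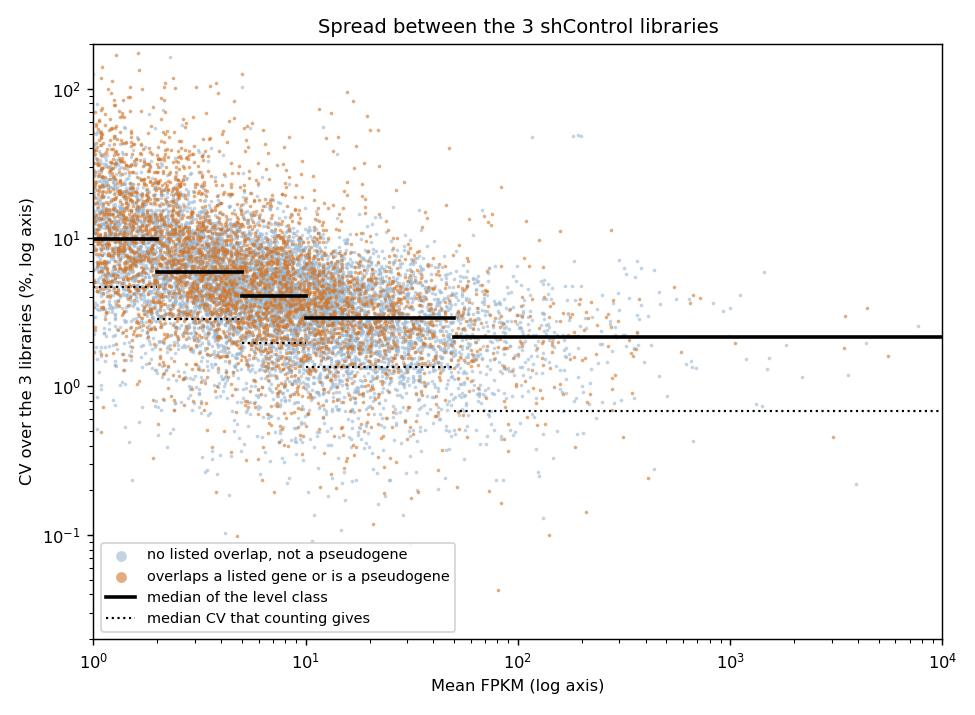
Coefficient of variation over the 3 libraries (vertical log axis, %) against mean FPKM (horizontal log axis) for 11748 expressed genes, orange where the gene overlaps a listed gene or is a pseudogene, with medians per level class (solid) and the median that counting gives (dotted). The median falls from 9.77% at 1 to 2 FPKM to 2.15% above 50, and most points far above it at 10 FPKM or more are orange.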

How the data were processed

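Poly(A)-enriched RNA of T98G cells was sequenced in pairs of 150 bases. The authors deposited 1 table with counts per gene and FPKM, fragments scaled to gene length and library size, for each library, per the file headers. The tools named in the submitters' processing notes are StringTie, HISAT2 and fastp, without versions or roles. For genome build, annotation, strand setting and multiply matching reads, nothing is given in the sources used here. GENCODE 29 holds 34674 of the 35750 gene IDs, and 99.97% of those match its GRCh38 position of the gene. Coordinates are therefore printed from the table as GRCh38. For most genes the deposited FPKM appear to divide by a length proportional to that of all exons merged. For 76.9% of 10039 genes with at least 500 counts, the implied length lay within 2% of 1.13 times the merged length of GENCODE 29. The factor of 1.13 is unexplained, and the remaining genes lay outside that limit. Such a divisor lowers the level of genes with long exons of little use. Every column with values per library was mapped to a sample.

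Levels are means with SDs over 3 libraries, and no test was made, since only 1 group is described. Gene types came from GENCODE 29, and promoters from RefSeq. Python 3.11.15, pandas 2.3.3 and edgeR 4.0.16 in R 4.3.3 (TMM scaling for an alternative) were used. The CV and counting-variance steps were tested on simulated data.

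The members and lists were chosen with earlier results of these data known. Of 917 genes on the first lists 885 were found. The 5 interferon and chemokine lists, with 82 of 85 genes found, were made after the values were seen. Where a symbol has several IDs, the higher was used. Named genes are the 30 highest with a symbol, the 4 highest of each list and marker genes without a count, the leading, next and any member at 10% or more of each family, the genes around CDKN2A, and the 10 symbols of highest CV at 10 FPKM or more. Mitochondrial genes and some others were left out of the last group. Genes outside this rule were chosen after their values were seen. Some genes that this rule names are not reported here.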

Additional observations from a re-analysis of the deposited data

How the results depend on the processing

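A share or level was counted as moved when it changed by at least its SD over libraries, the median CV when it changed by at least the SD of the values that leave out 1 library, and a count of genes, families or list entries when it changed by over 1.5 times. By these limits 28 of 98 alternatives for the main values moved. Leaving out 1 of 3 libraries cannot change a mean by its SD, so for class shares those alternatives could not move. Counts within 1.5 times still changed by more than the libraries differed: the 11759 expressed genes became 9808 at 2 FPKM, 13654 at 0.5 FPKM, 16015 at 1 TPM and 17317 with at least 10 counts in each library. The 27 dominated families became 37 at a share of 80%, 23 at 95% and 24 by counts. As shares of counts, classes held 3.65% (ribosomal proteins), 4.19% (mitochondrial), 2.29% (translation factors), 2.96% (cytoskeleton), 2.24% (glycolysis), 0.608% (S100, annexins, galectins), 2.34% (matrix), 2.23% (chaperones), 0.659% (antigen presentation), 1.88% (ferritins and antioxidants), 0.326% (cytokines) and 0.420% (processed pseudogenes, 1.97% by FPKM). Over nuclear protein-coding genes alone the same classes held 6.27%, 2.29%, 4.04%, 2.69%, 1.49%, 1.36%, 2.73%, 0.814%, 6.38% and 0.621%, leaving out mitochondrial genes and pseudogenes. With a mean of at least 1 TPM, 43 lineage list entries were expressed against 26. The median CV was 3.20% for genes of at least 5 FPKM and 4.12% without overlapping genes and pseudogenes, an alternative chosen after seeing the data. Without 1 of the libraries it ran from 3.47% to 3.64%, where 2 libraries remain. Of 390 alternatives for single lists and genes, 13 moved by the same limits. For single genes only the leaving out of a library was tried, which could not move a mean level. NME1-NME2, for example, went from 15.6 FPKM to 8.75 without library 1 and to 23.4 without library 2. These counts of moved values are therefore no measure of how stable the gene levels are. No paired analysis was possible because only the control group is described. Depth limits genes under about 0.05 CPM.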

Other observations

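HOX genes, which set position along the body axis and are largely silent in the adult forebrain, were looked up after the values were seen. Of 39 listed, 10 were expressed, a smaller share than the 59.9% of all listed protein-coding genes. They were 6 of 9 in the HOXD cluster, 3 of 9 in HOXC, 1 of 10 in HOXB and 0 of 11 in HOXA. HOXC4 (1.19 FPKM), HOXD13 (1.23) and HOXC13 (1.35) lay just above the minimum. HOXC10 was highest at 7.89, 6.86 and 6.84 FPKM, followed by HOXD10 at 4.55, 4.82 and 4.24 and HOXD8 at 3.07, 3.23 and 2.98. Within the HOXD cluster, HOXD12 (0.0403 FPKM), HOXD1 (0.0393) and HOXD3 (0.296) were under 1.

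FOXF1, a transcription factor of visceral mesenchyme, had 42.4, 44.2 and 43.2 FPKM. FENDRR, a long noncoding RNA from the same region of chromosome 16, had 26.4, 26.1 and 26.4. LINC00942, on chromosome 12, had 50.4, 49.4 and 48.9 FPKM and NORAD, a cytoplasmic RNA that binds Pumilio proteins, 80, 80.1 and 75.1. The nuclear RNA MALAT1 had 25.7 ± 0.658 FPKM (SD, n = 3). The RNA was enriched for poly(A) tails, so noncoding RNAs that are captured poorly would read too low and are not ranked here. All genes of this paragraph were chosen after their values were seen.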
